A study of Mus musculus with 4 samples.

Results

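The genes described here encode the subunits of the last 3 enzymes of mitochondrial oxidative phosphorylation: complex III (cytochrome bc1), complex IV (cytochrome c oxidase) and complex V (ATP synthase). Members were all genes in the deposited matrices whose symbol began with Cox4 to Cox8, with Uqc or with Atp5, and that had at least 10 UMIs in each of the 4 libraries. This gave 48 members of 50 matching symbols, out of 33696 genes listed and 20347 with that many UMIs in each library. Complex III held 14 members, complex IV 17 and complex V 17. Cox8b had 1 UMI in each library and Cox8c had 0 in all 4, so both fell outside, and the members nearest the limit were Cox4i2 with 12, 14, 19 and 14 UMIs and Cox7a1 with 35, 31, 27 and 37. The Uqc symbols take in the 6 assembly factors Uqcc1 to Uqcc6 beside the 8 subunits of complex III, and Cox5b-ps is a pseudogene whose reads cannot be told apart with certainty from those of Cox5b.

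Single nuclei were sequenced from the microdissected hypothalamus of wild-type C57BL/6J mice kept specific pathogen-free. The 2 ImP libraries came from mice given imidazole propionate, a microbial product of histidine, at 350 µg per day for 2 weeks from osmotic pumps in the peritoneal cavity, dissolved in water with 1% DMSO. The 2 vehicle libraries came from mice given vehicle over the same time. The labels give neither age nor sex. Whether a library stands for 1 animal or several is not stated, and each p-value therefore rests on the spread among libraries, some of which may be technical.

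Complex III passes electrons from ubiquinol to cytochrome c, complex IV passes them on to oxygen, and both pump protons across the inner mitochondrial membrane. Complex V lets the protons flow back through its membrane ring and turns that flow into ATP. Nearly all subunits are encoded in the nucleus, whereas the catalytic core of complex IV, cytochrome b and 2 membrane subunits of complex V come from mitochondrial DNA. Neurons rely heavily on this pathway to restore their ion gradients.

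The 4 libraries held 11255 to 16348 barcodes and 48060194 to 51945297 UMIs, and no more than 0.524% of the barcodes of a library were shared with another. Nuclei were assigned to classes by how many genes of a marker list they expressed, and 13.2% to 21.5% of kept nuclei met no list. Vehicle 1, vehicle 2, ImP 3 and ImP 4 gave 6899, 7840, 8384 and 8621 neuron-gated nuclei, with median depths of 4955, 4284.5, 3844.5 and 3810 UMIs. The ImP libraries were therefore the shallower ones per nucleus. Levels are given in CPM, counts scaled to a common total of UMIs per class and library. The gate rests on the 8 neuronal markers, so their detection is no separate check of the class. All 8 were detected in the neuron-gated nuclei of each library and summed to 11558 to 12569 CPM. Markers of other cells were present there too: all 10 oligodendrocyte markers were detected in each library, at 244 and 310 CPM in the vehicle libraries and 405 and 387 in the ImP libraries. The 10 astrocyte markers summed to 207 and 235 in vehicle and to 309 and 281 in ImP. The oligodendrocyte-gated nuclei in turn carried neuronal markers at 1406 and 2037 CPM in vehicle and at 2163 and 2478 in ImP. Pituitary markers summed to 1863 CPM in the neuron-gated nuclei of ImP 4 and to at most 29.7 in the other libraries.

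All 3 complexes had more CPM in both ImP libraries than in both vehicle libraries, in each of the 7 classes tested. Among these, GABAergic and glutamatergic nuclei are parts of the neuron-gated ones. In neuron-gated nuclei complex III summed to 414 and 448 CPM in vehicle 1 and vehicle 2 and to 503 and 504 in ImP 3 and ImP 4. Complex IV summed to 767 and 886 in vehicle and to 1086 and 1067 in ImP. Complex V summed to 858 and 951 in vehicle and to 1098 and 1092 in ImP. The mean of the ImP libraries was thus 1.17, 1.30 and 1.21 times that of the vehicle libraries for complexes III, IV and V. Complex IV had the largest ratio of the 3 in each of the 7 classes. Vehicle 1 was below vehicle 2 in all of these sums. Nuclei that met no marker list moved the same way, from 3126 and 3499 CPM over all members in vehicle to 4241 and 4181 in ImP. So did barcodes left out by the filters on genes and mitochondrial UMIs, from 3810 and 4510 to 6858 and 5837. The ratio of the means was 1.53 there, 1.27 in nuclei that met no list and 1.24 in neuron-gated nuclei. In smaller classes, complex III overlapped between the groups in mural-gated nuclei, on 6 to 24 UMIs per library. Complex V overlapped in fibroblast-gated nuclei, on 2 to 71 UMIs per library. Complex IV did not have the largest ratio in endothelial-, mural-, tanycyte- or ependymal-gated nuclei. These sums are given as a description, since the smallest two-sided p of an exact permutation test of 2 libraries against 2 is 0.333.

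**Figure D1:**
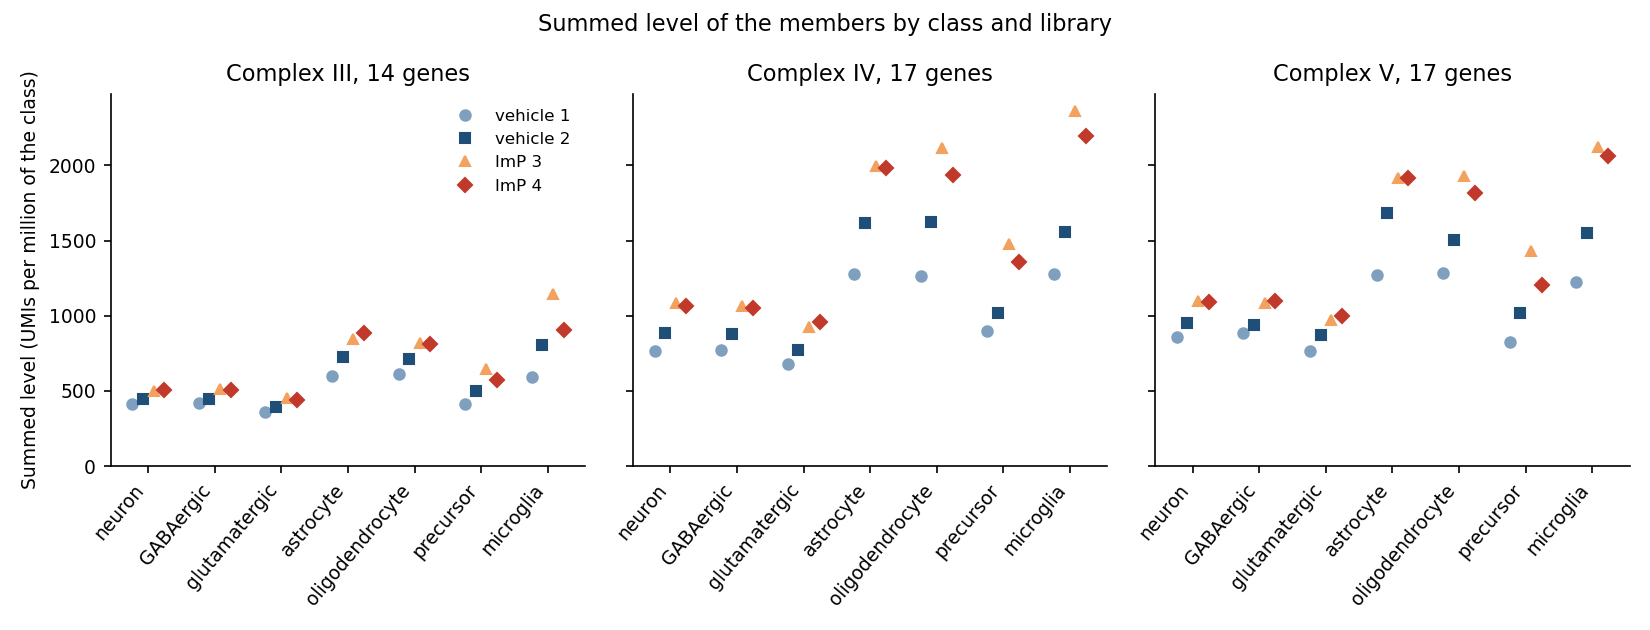
Summed level of the members of complex III, IV and V (panels), in CPM, for 7 classes of nuclei (x axis); each point is 1 library. Both ImP libraries lie above both vehicle libraries in every class and complex, and in neuron-gated nuclei complex IV sits at 767 and 886 in vehicle and at 1086 and 1067 in ImP.

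In neuron-gated nuclei Uqcrb, Uqcr11, Uqcrq and Uqcr10 had the largest log2 ratios among the complex III subunits, and none passed the test. Uqcrb, which binds near the ubiquinone site, had 32.2 and 37.5 CPM in vehicle and 50.7 and 51.7 in ImP, a log2 ratio of 0.57 ± 0.10 (SE, n = 2 and 2; edgeR adjusted p = 0.350). Uqcrh, the hinge protein that helps cytochrome c dock, had 58.3 and 65.2 against 80.2 and 77.7. Uqcrq had 28.2 and 31.6 against 38.7 and 41.0, and Uqcr11 had 15.98 and 20.6 against 26.4 and 26.6. The groups did not overlap for any of these 4 genes. Of the core subunits, Uqcrc2 had 49.4 and 50.8 in vehicle and 52.9 and 53.0 in ImP (log2 ratio 0.10 ± 0.07), and Uqcrc1 had 30.1 and 32.2 against 30.4 and 33.7, with overlapping groups. Of the assembly factors, Uqcc1, which helps make cytochrome b, had 51.2 and 53.6 in vehicle and 52.5 and 51.2 in ImP (log2 ratio 0.00 ± 0.07). Uqcc5 had 52.8 and 53.3 against 49.6 and 49.3, the 1 member whose ImP libraries were both below both vehicle libraries (log2 ratio -0.08 ± 0.06, adjusted p = 0.870). The 6 Uqcc factors had a median log2 ratio of 0.14, against 0.38 for the 8 complex III subunits.

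The abundant subunits of complex IV were higher in both ImP libraries, by amounts that differed between genes. Cox4i1, the regulatory subunit that binds ATP, had 149 and 177 CPM in vehicle and 224 and 226 in ImP (log2 ratio 0.48 ± 0.09, adjusted p = 0.350). Cox8a had 81.7 and 93.8 against 126 and 119 (0.50 ± 0.09), and Cox6b1, which bridges the monomers of the dimer, had 39.6 and 45.2 against 59.8 and 58.1 (0.49 ± 0.09). Cox6c had 76.5 and 90.6 against 115 and 113, and Cox5a had 80.9 and 99.0 against 121 and 113. In all 5 genes both ImP libraries were higher than both vehicle libraries. Cox7c, at 116 and 128 against 146 and 144, and Cox7b, at 61.0 and 71.3 against 81.0 and 85.4, were closer together. Among members with tissue isoforms, Cox6a1 had 33.0 and 36.6 against 40.4 and 40.4, Cox7a2 had 57.3 and 64.9 against 76.7 and 77.3, and Cox7a2l had 33.4 and 36.2 against 44.0 and 38.1. Cox7b2 had 4.53 and 6.70 in vehicle and 4.77 and 4.96 in ImP, and Cox7a1 had 0.62 and 0.50 against 0.33 and 0.66. Both isoforms overlapped between the groups, and their log2 ratios of -0.19 ± 0.21 and -0.17 ± 0.41 were smaller than their errors. The low Cox6b2 and Cox6a2 did not overlap, with 1.04 and 0.77 against 1.23 and 1.45 for Cox6b2 and 1.28 and 1.14 against 1.51 and 1.64 for Cox6a2.

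The 17 complex V members had log2 ratios from 0.02 to 0.54 in neuron-gated nuclei, and none passed the test. Atp5a1, a subunit of the catalytic head, had 107 and 108 CPM in vehicle and 109 and 107 in ImP (log2 ratio 0.02 ± 0.06), and Atp5b, which holds the catalytic sites, had 91.1 and 104 against 105 and 101 (0.09 ± 0.09). Both overlapped between the groups. Atp5c1, the rotating central shaft, had 73.6 and 75.6 against 82.0 and 83.3 (0.16 ± 0.06). The largest log2 ratio of the complex was 0.54 ± 0.11 for Atp5e, at 17.8 and 21.6 against 28.8 and 27.6. The 3 genes for the same proton-carrying ring subunit were all higher in both ImP libraries. Atp5g1 had 47.0 and 53.2 against 64.2 and 68.0, Atp5g2 had 37.9 and 42.4 against 50.1 and 48.9, and Atp5g3 had 50.9 and 60.8 against 77.1 and 76.3. Atp5h, Atp5l and Atp5pb, parts of the peripheral stalk and membrane domain, had log2 ratios of 0.46 ± 0.09, 0.38 ± 0.08 and 0.29 ± 0.08.

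**Figure D2:**
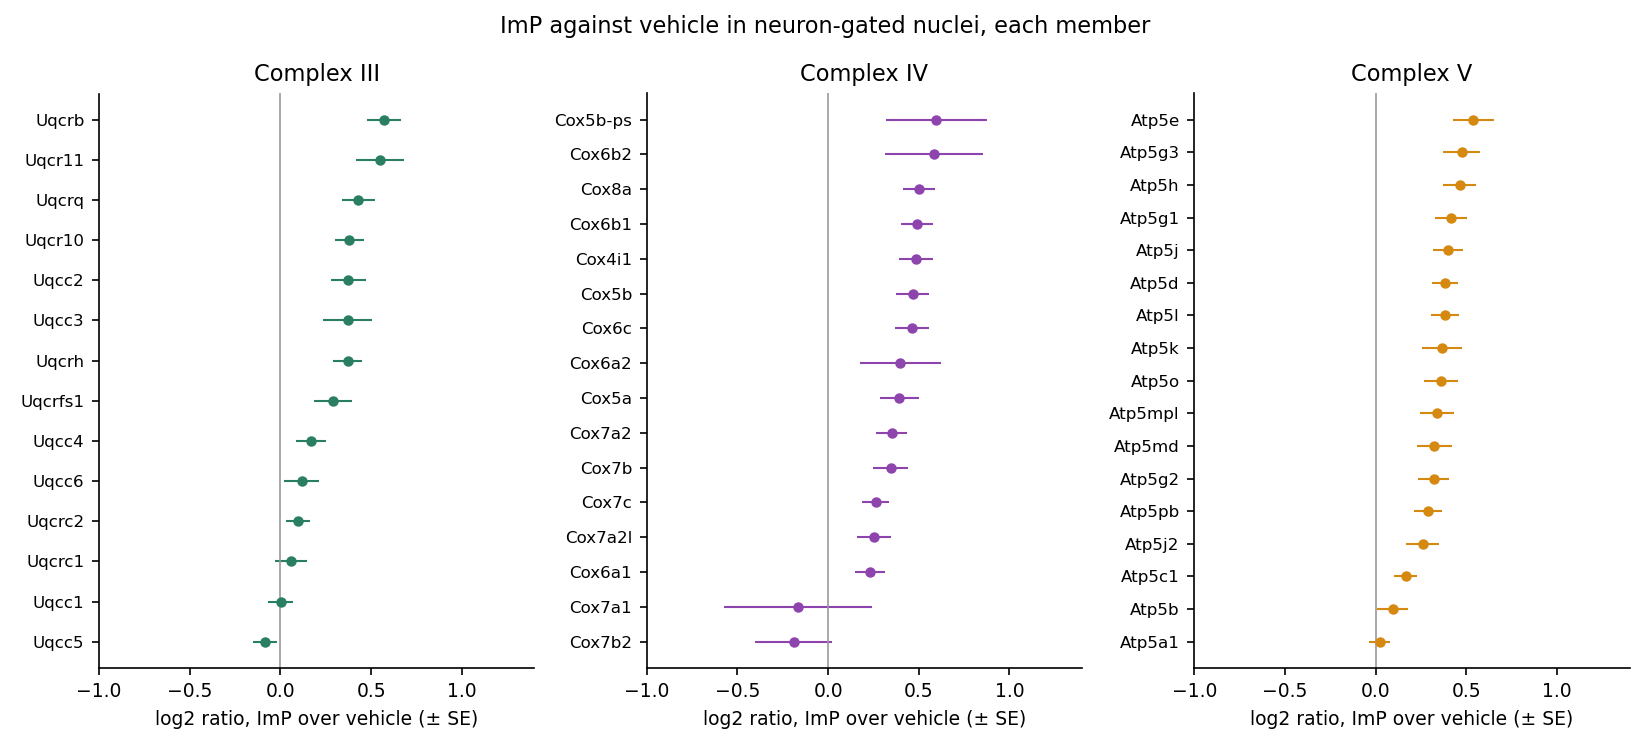
log2 ratio of ImP over vehicle in neuron-gated nuclei for each member tested, by complex, with bars of 1 SE from the edgeR fit; the grey line is no difference. The values run from -0.19 for Cox7b2 to 0.60 for Cox5b-ps, with 44 of 47 above the line, and Uqcc1, Uqcc5, Uqcrc1, Atp5a1 and Atp5b lie between -0.08 and 0.09.

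None of the 47 members tested in neuron-gated nuclei passed an adjusted p of 0.05 in edgeR's quasi-likelihood test, where 0.00495% of all 20191 genes tested did. At an unadjusted p under 0.05 there were 34 members, against 7.07% of all genes tested. DESeq2 called 16 of the 43 members to which it gave an adjusted p, against 1.62% of all genes with one. The log2 ratio was above 0 in 44 of the 47, and their median was 0.37 against -0.01 over all genes tested. In 40 members both ImP libraries lay above both vehicle libraries, and in 1, Uqcc5, both lay below. Over all genes tested 16.9% had both ImP libraries above and 20.9% both below. Library names carry 2 prefixes, each on 1 vehicle and 1 ImP library, and the labels do not say what a prefix marks. A fit with the prefix as a block called 28 members, all higher in ImP, where 3.18% of all genes were called higher. Leaving out ImP 3 gave 13 called members, where 2.98% of all genes were called, and leaving out any other library gave 0 or 1, where 0% to 0.217% were. The oligodendrocyte and astrocyte markers and the depth per nucleus given above separated the 2 groups in the same way as the members, and their part in these differences was not tested.

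In the other classes the members were also mostly higher in ImP, with wider errors. No member passed in GABAergic nuclei (45 tested, background 0.0362%), glutamatergic nuclei (43, background 0%), astrocyte-gated nuclei (43, background 0.00846%), oligodendrocyte-gated nuclei (42, background 0%), precursor-gated nuclei (40, background 0.242%) or microglia-gated nuclei (33, background 0%). At an unadjusted p under 0.05 these classes had 31, 22, 21, 21, 13 and 12 members, against 7.97%, 6.57%, 10.3%, 11.1%, 9.46% and 8.94% of all genes tested. DESeq2 called 3 members in GABAergic nuclei, where 1.3% of all genes with an adjusted p were called, and 0 in each of the other 5, where 0.0211%, 0.469%, 0.508%, 0.651% and 0% were. DESeq2 gave an adjusted p to only 35, 43, 10, 13, 4 and 33 members in these classes, in the same order, so in astrocyte-, oligodendrocyte- and precursor-gated nuclei its count covers few of them. The median log2 ratio of the members was 0.34, 0.34, 0.42, 0.42, 0.52 and 0.71, in the same order. Both ImP libraries were above both vehicle libraries in 35, 34, 32, 34, 26 and 24 members, where 17.1%, 16.6%, 20.6%, 26.2%, 19.6% and 19.7% of all genes tested were. Among all genes tested that span under 5 kb, the share was 30.5% in GABAergic and 32.7% in glutamatergic nuclei. It was 43.0% in astrocyte-gated and 44.7% in oligodendrocyte-gated nuclei. With the prefix as a block, 23, 10, 13, 13, 1 and 0 members passed, where 3.42%, 2.11%, 4.3%, 5.31%, 0.761% and 0.144% of all genes did. Leaving out vehicle 2 gave 15 called members in GABAergic (background 1.81%) and 12 in astrocyte-gated nuclei (background 2.66%). Leaving out ImP 3 gave 15 in GABAergic nuclei (background 4.23%).

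Uqcc1 and Uqcc5 stood near or below 0 in several of these classes too. Uqcc1 had log2 ratios of 0.02 ± 0.20 in astrocyte-gated, 0.07 in oligodendrocyte-gated and -0.09 ± 0.34 in precursor-gated nuclei. Uqcc5 was above 0 in astrocyte-gated nuclei. Uqcc5 was lower in both ImP libraries in oligodendrocyte-gated (log2 ratio -0.42 ± 0.16, adjusted p = 0.403), precursor-gated (-0.23 ± 0.24) and microglia-gated nuclei (-0.76 ± 0.37). At the other end, Uqcrb had 0.76 ± 0.17 in oligodendrocyte-gated nuclei and 1.63 ± 0.51 in the 71 to 155 microglia-gated nuclei per library. The size of the ImP difference was compared between classes directly. No member passed that test for neuron-gated against astrocyte-gated nuclei (48 tested, 2 at an unadjusted p under 0.05, background 0.209%), for neuron-gated against oligodendrocyte-gated nuclei (48, 3 and 0.304%) or for GABAergic against glutamatergic nuclei (44, 0 and 0.0122%). DESeq2 also called 0 in each (background 0.00996%, 2.19% and 0%), with 1, 0 and 0 at an unadjusted p under 0.05, though it gave an adjusted p to only 4 of the 48 in the second of these. Over all genes, 6.7%, 8.06% and 4.69% had an unadjusted p under 0.05 in edgeR and 1.99%, 2.51% and 0.14% in DESeq2.

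Promoters are shown for some members with large ratios in the ImP comparison and for 2 that were level or lower. RefSeq promoter sequences on GRCm38.p6, from 250 bases before to 50 after the start, were matched for 35 of the 48 members. They were searched on both strands for the NRF1 core GCGCATGC, the ETS core CCGGAAG bound by GABPA, the YY1 core AAGATGGC and the GC box GGGCGG, which are known from promoters of respiratory chain genes. The NRF1 core was in 6 of the 35 (17.1%, against 3.05% of 27025 genes with a promoter of that length), and the ETS core in 11 (31.4% against 9.93%). The YY1 core was in 4 (11.4% against 3.19%) and the GC box in 15 (42.9% against 38.2%). The 4 sequences first listed belong to members with log2 ratios of 0.49 to 0.55 in neuron-gated nuclei, and the last 2 to Uqcc1 and Cox7b2, which were level or lower. Each runs 5′ to 3′ from 150 bases before to 20 after the start, with the motifs in capitals.
Uqcr11, chr10:80406802-80406971, minus strand: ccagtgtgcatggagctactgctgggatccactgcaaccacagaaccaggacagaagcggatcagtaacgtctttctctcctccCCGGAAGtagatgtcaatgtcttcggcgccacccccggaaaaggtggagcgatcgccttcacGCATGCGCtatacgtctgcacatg
Atp5e, chr2:174464082-174464251, minus strand: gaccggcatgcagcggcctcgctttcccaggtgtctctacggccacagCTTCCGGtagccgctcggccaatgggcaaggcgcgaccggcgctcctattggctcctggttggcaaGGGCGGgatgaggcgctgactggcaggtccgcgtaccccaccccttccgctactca
Cox8a, chr19:7217597-7217766, minus strand: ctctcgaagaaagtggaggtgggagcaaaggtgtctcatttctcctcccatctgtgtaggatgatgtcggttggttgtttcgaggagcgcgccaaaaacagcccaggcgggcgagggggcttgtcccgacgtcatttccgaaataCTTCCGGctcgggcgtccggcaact
Cox6b1, chr7:30626095-30626264, minus strand: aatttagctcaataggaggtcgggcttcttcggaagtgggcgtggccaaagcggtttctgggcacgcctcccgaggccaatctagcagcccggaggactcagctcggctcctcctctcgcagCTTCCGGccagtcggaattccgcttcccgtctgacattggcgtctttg
Uqcc1, chr2:155930291-155930460, minus strand: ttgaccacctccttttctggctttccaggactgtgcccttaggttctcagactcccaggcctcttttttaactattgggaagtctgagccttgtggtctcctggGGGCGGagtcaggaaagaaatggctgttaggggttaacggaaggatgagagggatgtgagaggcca
Cox7b2, chr5:71548186-71548355, minus strand: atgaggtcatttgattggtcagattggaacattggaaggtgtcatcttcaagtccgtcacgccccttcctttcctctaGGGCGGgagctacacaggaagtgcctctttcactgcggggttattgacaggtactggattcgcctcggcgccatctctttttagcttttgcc
Uqcr11 holds both an ETS core and an NRF1 core, Atp5e an ETS core and a GC box, and Cox8a and Cox6b1 an ETS core each. In Uqcc1 and Cox7b2 the only match in the printed stretch was a GC box. The printed promoters, with large ratios or not, were chosen after these values were seen. Other members with large ratios, such as Cox5b (0.47) and Atp5g3 (0.47), held none of the motifs. Cox7a1, also below 0, held none either, and Uqcrc1, whose groups overlapped, held an NRF1 core. Uqcrb, with a larger ratio than those printed, had no sequence. A match is a stretch of letters and not a measured binding site.

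Genes of the same pathway outside the symbol rule were counted from fixed lists, in neuron-gated nuclei and by the same test, and none passed. Cycs, the cytochrome c that links complexes III and IV, had a log2 ratio of 0.47 ± 0.10 and Cyc1, the haem subunit of complex III, 0.32 ± 0.14 (both adjusted p values 0.350 or above). The 25 assembly factors of complex IV that were tested had a median log2 ratio of 0.07, with both ImP libraries higher in 8 and lower in 5, that is 32% and 20% of them against 16.9% and 20.9% of all genes tested. Cox17, a copper carrier, was at 0.32 ± 0.09 and Cox15, needed for haem a, at -0.16 ± 0.12. The 8 complex II genes had a median of 0.12, and 5 (62.5%) had both ImP libraries higher. Of the ADP/ATP carriers, Slc25a4 was at 0.36 ± 0.07 and Slc25a5 at 0.45 ± 0.11. At an unadjusted p under 0.05 there were 5 of the 25 complex IV assembly factors, 0 of the complex II genes and 2 of the 4 carriers, against 7.07% of all genes tested. The 11 regulators of mitochondrial gene expression had a median of -0.01, with Pprc1 at 0.00 ± 0.10 and Gabpa at 0.09 ± 0.11. With nuclei of all depths together, the 6 mitochondrially encoded subunits overlapped between the groups in every case, with a median log2 ratio of -0.04. Their sum was 7326 and 8992 CPM in vehicle and 8213 and 7548 in ImP, a ratio of the means of 0.966. That ratio was 0.963 in GABAergic, 1.03 in glutamatergic, 1.11 in astrocyte-gated, 1.07 in oligodendrocyte-gated, 1.15 in precursor-gated and 1.03 in microglia-gated nuclei, and the groups overlapped in each. Cytosolic ribosomal proteins, which are no part of the pathway, had both ImP libraries higher in 76 of 77, with a median log2 ratio of 0.46.

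The level of the members depended on how many UMIs a nucleus had. In neuron-gated nuclei of 1000 to 2000 UMIs, all members together had 3292 and 3833 CPM in vehicle and 4656 and 4407 in ImP. In nuclei of 2000 to 4000 UMIs the values were 2777 and 2940 against 3317 and 3263. At 4000 to 8000 UMIs they were 2053 and 2170 against 2395 and 2369, and at 8000 to 16000 UMIs 1603 and 1663 against 1805 and 1802. The level fell from each band to the next in all 4 libraries. Within every band both ImP libraries stayed above both vehicle libraries, with the ratio of the means at 1.27, 1.15, 1.13 and 1.10 from the shallowest band to the deepest, against 1.24 without bands. Taken by complex, complex III overlapped at 8000 to 16000 UMIs, with 339 and 353 CPM in vehicle and 352 and 350.0 in ImP (ratio 1.01), and the other sums by complex did not overlap in any of the 4 bands. Oligodendrocyte-gated nuclei of 1000 to 2000 UMIs had a ratio of 1.35 and astrocyte-gated ones 1.31, against 1.35 and 1.33 without bands. The sum of the mitochondrially encoded subunits went the other way in 2 bands of neuron-gated nuclei. It was 10856 and 12095 CPM in vehicle and 10592 and 9329 in ImP at 2000 to 4000 UMIs (ratio 0.868). At 4000 to 8000 UMIs it was 7540 and 8563 against 7254 and 6663 (ratio 0.864). In the shallowest and the deepest band the groups overlapped.

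**Figure D3:**
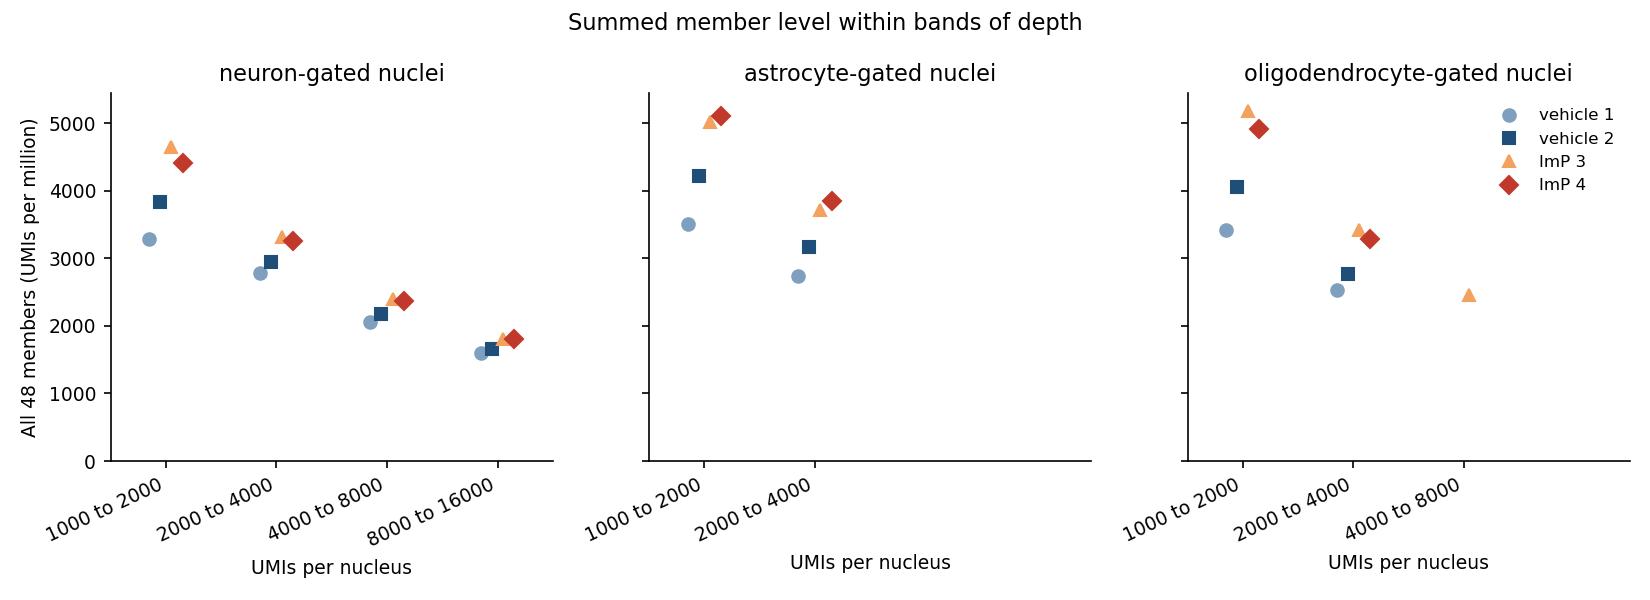
Summed level of all 48 members in CPM (y axis) in nuclei grouped by UMIs per nucleus (x axis), for 3 classes; each point is 1 library, and a band with under 20 nuclei in a library is left out. Levels fall as depth rises, and the ImP libraries lie above the vehicle libraries in each band that all 4 libraries fill.

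In neuron-gated nuclei the log2 ratio of the members ran lower as the gene's span grew. Gene spans from the start of the first exon to the end of the last were taken from GENCODE M21 (GRCm38) for all 48 members. The 20 members tested that span under 5 kb had a median log2 ratio of 0.41, and the 16 of 5 to 10 kb had 0.35. The 6 members of 10 to 20 kb had 0.33, the 3 of 20 to 50 kb 0.10 and the 2 longer ones -0.09. Those longest members are Uqcc1, spanning 83417 bases, and Cox7b2, spanning 105382, and the next are Uqcc5, Atp5c1 and Uqcrc2. Atp5a1, Atp5b and Cox7a1 departed from this order, with spans of 9141, 7119 and 1935 bases and log2 ratios of 0.02, 0.09 and -0.17. Across the 47 members, Spearman's rho between log2 ratio and span was -0.46, and across the 19465 genes tested that have a span it was -0.11. With the length of the gene's longest transcript in place of span, rho was -0.44 and -0.06. Which of the 2 lengths the ratio follows was not tested. In the other classes, rho with span across the members was -0.40 in GABAergic, -0.46 in glutamatergic, -0.44 in astrocyte-gated, -0.34 in oligodendrocyte-gated and -0.52 in microglia-gated nuclei. In precursor-gated nuclei it was -0.08, and the 3 members of 20 to 50 kb there had a median of 0.57 against 0.60 under 5 kb. Genes share the same 4 libraries, so this is a description across genes. Over all genes tested in neuron-gated nuclei the median log2 ratio went from 0.06 for spans under 5 kb to -0.02 for spans of at least 50 kb.

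**Figure D4:**
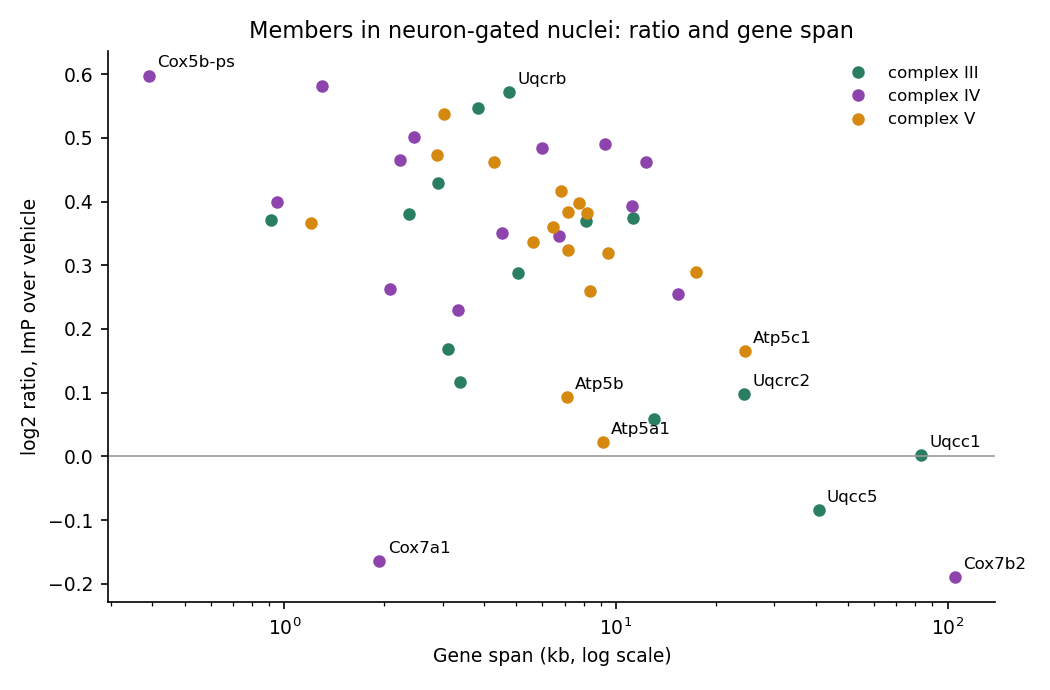
log2 ratio of ImP over vehicle in neuron-gated nuclei (y axis) against the gene's span in kb (x axis, log scale); each point is 1 of the 47 members tested, coloured by complex. Members spanning over 20 kb lie between -0.19 and 0.16, below most of the shorter ones.

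Neuron-gated nuclei had fewer member CPM than glial nuclei, in a comparison with the library as a block. All members summed to 2039, 2285, 2687 and 2664 in neuron-gated nuclei of vehicle 1, vehicle 2, ImP 3 and ImP 4. The sums were 3152, 4030, 4760 and 4783 in astrocyte-gated and 3160, 3844, 4865 and 4564 in oligodendrocyte-gated nuclei. In each library the neuron-gated value was the lowest of the 3. Against astrocyte-gated nuclei, 40 of 47 members were called lower in neuron-gated nuclei and 0 higher, where 28.1% of all genes tested were called lower and 32.6% higher; the members' median log2 ratio was -0.74 against 0.08 over all genes. Against oligodendrocyte-gated nuclei 42 were lower and 2 higher (all genes 31% and 35.4%), with a median of -0.89 against 0.09.

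The glial classes were also the shallower ones, with median depths of 1324.5 to 1715 UMIs against 3810 to 4955 in neuron-gated nuclei. A band of 1000 to 2000 UMIs brought the depths closer without matching them: within it the medians were 1703.5 to 1748 UMIs in neuron-gated, 1438 to 1497 in astrocyte-gated and 1372 to 1405 in oligodendrocyte-gated nuclei. In this band 18 of 42 members were lower in neuron-gated than in astrocyte-gated nuclei (background 26.3%), with a median log2 ratio of -0.31. Against oligodendrocyte-gated nuclei 24 of 42 were lower (background 29.6%), with a median of -0.36. Plain sums, unlike these fits, use no TMM scaling. By plain sums in this band, neuron-gated nuclei held 0.863 to 0.938 times the astrocyte-gated level in the 4 libraries. They held 0.897 to 0.962 times the oligodendrocyte-gated level. At 2000 to 4000 UMIs these ranges were 0.848 to 1.02 and 0.971 to 1.10, so there the direction differed between libraries. The band of 1000 to 2000 UMIs was chosen after these depths were seen.

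**Figure D5:**
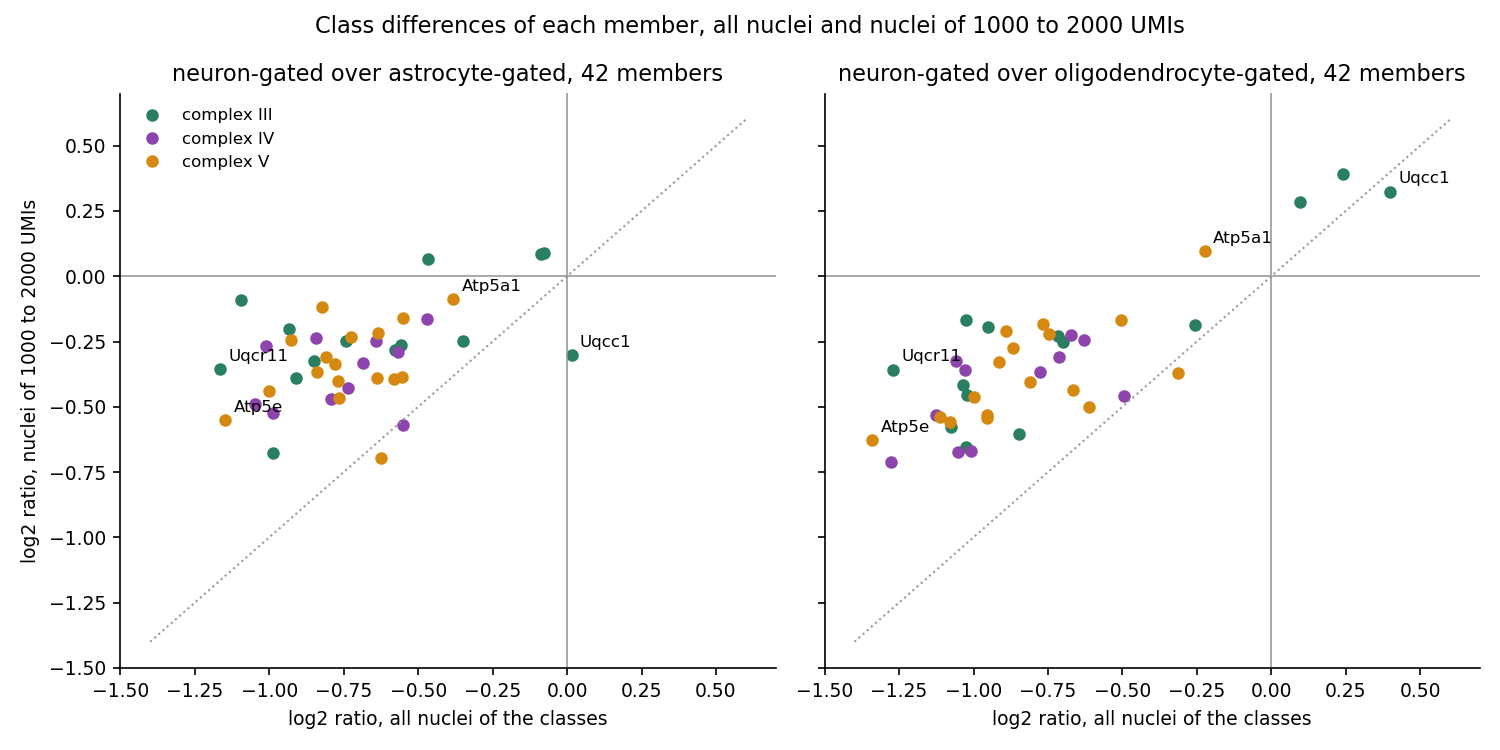
log2 ratio of each member in neuron-gated over astrocyte-gated (left) and oligodendrocyte-gated nuclei (right): all nuclei of the classes on the x axis, nuclei of 1000 to 2000 UMIs on the y axis; the dotted line marks equal values. Of 42 members, 39 (left) and 40 (right) lie above the dotted line, and Uqcr11 goes from -1.17 and -1.27 to -0.35 and -0.36.

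Apart from the rare isoforms Cox6b2, Cox7a1 and Cox6a2, the members furthest below 0 were Uqcr11 and Atp5e against astrocyte-gated nuclei and Atp5e and Cox6c against oligodendrocyte-gated nuclei. Uqcr11 had 15.98, 20.6, 26.4 and 26.6 CPM in neuron-gated nuclei, 35.7, 51.6, 67.7 and 54.9 in astrocyte-gated and 37.7, 52.3, 66.1 and 53.0 in oligodendrocyte-gated nuclei. Its log2 ratio was -1.17 ± 0.11 against astrocyte-gated nuclei (adjusted p = 4.48e-12), and in nuclei of 1000 to 2000 UMIs it no longer passed (-0.35 ± 0.17, adjusted p = 0.0868). Atp5e went from -1.34 ± 0.09 against oligodendrocyte-gated nuclei to -0.63 ± 0.17 (adjusted p = 0.000541), and Cox6c from -1.28 ± 0.08 to -0.71 ± 0.12 (adjusted p = 2.26e-08), so both kept their call in that band, where the neuron-gated nuclei were still the deeper ones. Uqcc1 was called higher in neuron-gated than in oligodendrocyte-gated nuclei (0.40 ± 0.09, adjusted p = 0.00116), at 51.2, 53.6, 52.5 and 51.2 CPM against 36.1, 37.3, 42.7 and 36.5. In nuclei of 1000 to 2000 UMIs its value was 0.32 ± 0.18 (adjusted p = 0.110).

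Isoforms with low levels did not all follow the direction of most members. Cox7b2 was higher in neuron-gated than in oligodendrocyte-gated nuclei, where most members were lower. Cox6b2 against both glial classes, and Cox7a1 and Cox6a2 against oligodendrocyte-gated nuclei, were lower in neuron-gated nuclei, as most members were. Values within a band of UMIs per nucleus are not given for these isoforms. Cox7b2 had 174, 252, 171 and 181 UMIs in neuron-gated nuclei and 1, 0, 3 and 1 in oligodendrocyte-gated nuclei. Over the 4 libraries its share of UMIs was 8.44 times higher in neuron-gated than in oligodendrocyte-gated nuclei, with a 95% counting interval of 3.60 to 26.1 (edgeR adjusted p = 3.13e-05). Astrocyte-gated nuclei held 9, 11, 8 and 10 UMIs of it, a level close to the neuronal one, with a log2 ratio of neuron-gated over astrocyte-gated of -0.33 ± 0.27. Cox6b2, known as the testis form of Cox6b1, was lower in neuron-gated nuclei, at 1.04, 0.77, 1.23 and 1.45 CPM against 7.14, 3.97, 4.23 and 9.80 in astrocyte-gated and 3.88, 4.80, 6.42 and 4.57 in oligodendrocyte-gated nuclei. Its log2 ratios were -2.42 ± 0.36 and -2.17 ± 0.32 (adjusted p = 1.35e-07 and 1.28e-05), from only 5 to 15 UMIs per library in the glial classes. Cox7a1, the heart and muscle form of Cox7a2, was lower in neuron-gated than in oligodendrocyte-gated nuclei by the fit (-1.76 ± 0.49, adjusted p = 0.00459), on 2 to 4 UMIs per library in the latter. Cox6a2, the muscle form of Cox6a1, had 43 to 60 UMIs per library in neuron-gated nuclei and had a log2 ratio of 0.23 ± 0.58 over astrocyte-gated nuclei, smaller than its error, and was lower than in oligodendrocyte-gated nuclei (-1.19 ± 0.34, adjusted p = 0.00605), where 4 to 8 UMIs per library were found. Cox4i2, an oxygen-responsive form of Cox4i1, had 3 UMIs among the 61971 UMIs of mural-gated nuclei and 32 among 148362025 UMIs of neuron-gated nuclei. That is 224 times the neuronal share, with a counting interval of 44.0 to 717, from 3 UMIs in 3 libraries.

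GABAergic nuclei had slightly more member CPM than glutamatergic nuclei. All members summed to 2077, 2265, 2665 and 2651 CPM in GABAergic and to 1804, 2040, 2346 and 2400 in glutamatergic nuclei, higher in each of the 4 libraries. Of 43 members tested, 8 were called higher and 1 lower (all genes 5.05% and 7.99%), with a median log2 ratio of 0.12 against 0.01. Those higher were Uqcrh of complex III, Cox4i1, Cox5b, Cox6b1 and Cox8a of complex IV, and Atp5b, Atp5g3 and Atp5k of complex V. Atp5k, a membrane subunit, had 21.8, 25.6, 29.7 and 31.2 CPM in GABAergic and 15.3, 22.7, 23.0 and 26.0 in glutamatergic nuclei (log2 ratio 0.28 ± 0.09, adjusted p = 0.0398). Cox5b had 31.9, 33.6, 38.4 and 42.1 against 25.3, 22.7, 35.2 and 35.6 (0.26 ± 0.08, adjusted p = 0.0279), and Cox6b1 was at 0.23 ± 0.07 (adjusted p = 0.0208). Cox7b2 went the other way, with 4.50, 5.92, 3.27 and 4.72 in GABAergic and 6.46, 6.97, 5.52 and 7.73 in glutamatergic nuclei (-0.57 ± 0.18, adjusted p = 0.0348). The 6 mitochondrially encoded subunits were all called higher in GABAergic nuclei, with a median log2 ratio of 0.28. DESeq2 called none of the 43 members (3 at an unadjusted p under 0.05), where it called 5.96% of all genes (11.1% at an unadjusted p under 0.05). Leaving out 1 library left 2 to 4 called, and the share of all genes called is not given for these fits. Scaling by library totals called 19, all higher. With that scaling 1450 genes in all were called higher and 1022 lower, against 787 and 1246 with TMM scaling. Glutamatergic nuclei were the deeper class, with medians of 4761.5 to 6287 UMIs against 4174 to 5488.

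Oligodendrocyte precursors, the dividing cells that give rise to oligodendrocytes, had lower levels than oligodendrocyte-gated nuclei. All members summed to 2137, 2536, 3556 and 3132 CPM in the 217 to 251 precursor-gated nuclei per library. Of 42 members, 27 were called lower and 0 higher (all genes 22.5% lower), with a median log2 ratio of -0.46 against -0.05. Atp5l had 42.4, 94.6, 99.9 and 91.6 CPM in precursor-gated and 114, 129, 176 and 166 in oligodendrocyte-gated nuclei (-0.79 ± 0.14, adjusted p = 5.32e-05). Cox7a2l had -0.76 ± 0.17 and Uqcrfs1, the iron-sulphur subunit of complex III, -0.73 ± 0.23 (adjusted p = 0.000663 and 0.0133). Precursor-gated nuclei were deeper, with medians of 2168 to 2588 UMIs. Among nuclei of 2000 to 8000 UMIs none of 39 members passed, where 17.3% of all genes were called lower. Their median log2 ratio was -0.11, with 2 at an unadjusted p under 0.05 against 45.2% of all genes. Among nuclei of 1000 to 2000 UMIs 5 of 40 were called lower, where 15.1% of all genes were.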

How the data were processed

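Nuclei of 2 vehicle and 2 ImP hypothalamus libraries were profiled with 10x 3′ chemistry (about 10000 nuclei loaded, at least 40000 read pairs per nucleus aimed for, per the labels' protocols). Reads were processed with Cell Ranger 8.0.1 on GRCm39 and Seurat 5.0.0 is named too, per the submitters' processing notes. The authors deposited raw UMI counts per gene and nucleus, with no normalization. Whether intronic reads were counted is not given in the sources used here.

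Nuclei with at least 500 genes and at most 5% mitochondrial UMIs were kept. A nucleus joined a class when it had a UMI of at least 5 of 8 neuronal, 5 of 10 astrocyte, 5 of 10 oligodendrocyte, 5 of 9 precursor or 4 of 10 microglial markers; nuclei meeting several lists (3.38% to 4.40%) were left out, which stood in for a doublet caller. Neuron-gated nuclei with at least 2 UMIs of Slc32a1, Gad1 or Gad2 and 0 of Slc17a6, Slc17a7 or Slc17a8 were called GABAergic, and the reverse glutamatergic. These gates were set after the marker levels were seen. UMI counts were summed per class and library and tested with edgeR 4.0.16 (R 4.3.3, TMM scaling, filterByExpr with a minimum count of 10, quasi-likelihood test, Benjamini-Hochberg adjustment over all genes tested, threshold 0.05); standard errors come from the log2 ratio and its F statistic. Levels are CPM within a class and are not divided by gene length, since 3′ tags are counted, so levels of different genes were not compared. DESeq2 1.42.0 was an alternative. Counting intervals are exact (Clopper-Pearson form, 95%) and cover counting error only. The fits were tested on simulated counts with known changes. Those changes were all larger than the ImP differences of the members in neuron-gated nuclei, so recovery of differences of that size was not tested.

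Members named with values were the 6 of each complex with the highest level in neuron-gated nuclei, isoform families, the 3 extreme called members of each class comparison, and a few chosen after their values were seen (Uqcrc1 and the genes named from the pathway lists). Members and gene lists were chosen with earlier results of these data known. The ATP synthase inhibitor is listed under an older symbol outside the symbol rule and was not analysed here.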

Additional observations from a re-analysis of the deposited data

How the results depend on the processing

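Counts of called members in the ImP comparisons moved most. Leaving out 1 library gave 0 to 13 called members in neuron-gated, 0 to 15 in GABAergic, 0 to 6 in glutamatergic, 0 to 12 in astrocyte-gated, 0 to 1 in oligodendrocyte-gated, 0 to 6 in precursor-gated and 0 to 1 in microglia-gated nuclei. The prefix of the library names as a block gave 28, 23, 10, 13, 13 and 1 in the first 6 of these. DESeq2 gave 16 in neuron-gated and 3 in GABAergic nuclei. Without a filter on low counts there were 16 in GABAergic, 4 in glutamatergic, 1 in astrocyte-gated and 1 in precursor-gated nuclei. Without the 10% of nuclei with most UMIs there were 2 in glutamatergic nuclei, and without the filter on nuclei 1 in precursor-gated nuclei. The count reported is 0 in all 7 classes, and the cause of these changes was not tested. The share of all genes called is given above for some of these settings only. Where it is not given, a count does not tell a change in the members from one in all genes. The libraries that gave most when left out were ImP 3 (13 in neuron-gated, 15 in GABAergic nuclei) and vehicle 2 (15 in GABAergic, 12 in astrocyte-gated, 6 in glutamatergic and 6 in precursor-gated nuclei). The groups share no replicate number, so the prefix was the only label by which libraries could be paired, and the labels do not say that it marks a shared animal, batch or day.

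Between classes, nuclei of 2000 to 8000 UMIs gave 21 called members for neuron-gated against astrocyte-gated nuclei, all lower, with a median log2 ratio of -0.35. Against oligodendrocyte-gated nuclei there were 16, of which 14 were lower and 2 higher, with a median of -0.23. The same band gave 4 for GABAergic against glutamatergic and 0 for precursor-gated against oligodendrocyte-gated nuclei. Nuclei of 1000 to 2000 UMIs, chosen after the data were seen, gave 18, 24 and 5 in the first, second and last. GABAergic against glutamatergic also gave 0 with DESeq2, 19 with library totals, 3 with the stricter gate, 1 without the nuclei of most UMIs, and 2 to 4 with 1 library left out. Precursor-gated against oligodendrocyte-gated nuclei gave 14 with DESeq2. For several of these counts the share of all genes called is not given, and those counts do not single out the members. No comparison of the ImP difference between classes gave a called member under any alternative run.

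The log2 ratio of the summed levels, ImP over vehicle, kept its sign in neuron-gated, astrocyte-gated and oligodendrocyte-gated nuclei under every alternative run. With 1 library left out it ran from 0.17 to 0.28, 0.28 to 0.49 and 0.20 to 0.35 for complexes III, IV and V in neuron-gated nuclei, from 0.26 to 0.53, 0.30 to 0.64 and 0.19 to 0.59 in astrocyte-gated nuclei, and from 0.19 to 0.42, 0.32 to 0.68 and 0.31 to 0.54 in oligodendrocyte-gated nuclei. The highest values came without vehicle 2. In nuclei of 1000 to 2000 UMIs complex III in neuron-gated nuclei was at 0.33. Among single members in the ImP comparison of neuron-gated nuclei, the log2 ratio changed sign for a few, all near 0 or rare, and the cause was not tested. Atp5a1 was at -0.035 in nuclei of 2000 to 8000 UMIs, Uqcrc2 at -0.19 in nuclei of 1000 to 2000 UMIs, and Uqcc1 at -0.015 with library totals and -0.00048 with the looser gate. With 1 library left out, Atp5b ran from -0.017 (without vehicle 1) to 0.21, Cox7a1 from -0.74 to 0.25 (without ImP 3), Cox7b2 from -0.46 to 0.14 (without vehicle 2), and Uqcc1 from -0.048 (without vehicle 1) to 0.054. Fits in nuclei of 2000 to 8000 UMIs were not run for microglia-gated nuclei, nor in nuclei of 1000 to 2000 UMIs for glutamatergic nuclei, since under 20 nuclei were left in a library. In the fit reported, with 2 libraries per group, differences of the size seen here for most members were not called. Some of the alternatives above called a part of them, and rare isoforms rest on few UMIs.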
